A study of Mus musculus with 15 samples.

Results

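The comparison sets control macrophages that had received lipopolysaccharide (LPS) for 8 h against control macrophages at 0 h, that is, at rest, and asks which accessible stretches of the genome gained or lost standing between the times. The members are 6 of the 15 DNase-seq libraries of the series: WT replicate 1, WT replicate 2 and the littermate control at 8 h, and the same 3 names at 0 h. The cells were macrophages grown from the bone marrow of C57BL/6J mice, either wild type (WT) or a littermate control, and the LPS dose was 10 ng/ml. The other 9 libraries are the 3 control libraries at 3 h and 6 libraries of Ikzf KO macrophages (2 each at 0, 3 and 8 h), in which a gene of the Ikaros family is disrupted according to the labels and the series title. They were used below to see whether regions chosen in the 6 control libraries behave alike elsewhere. The titles give 80 U of DNase for WT replicate 1, the littermate control and KO, and 100 U for WT replicate 2, whereas the protocol names a single amount, so the DNase amount cannot be told apart from the replicate number in WT. The labels do not say which alleles the littermate controls carry, nor whether replicates came from separate mice or cultures. Spread between libraries, on which every p-value rests, may therefore be technical.

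LPS, a lipid-linked sugar chain on the surface of Gram-negative bacteria, is sensed by macrophages through Toll-like receptor 4. The receptor signals to NF-kB, AP-1 and interferon regulatory factors, which bind enhancers and promoters of inflammatory genes. Many of these enhancers are already open in resting macrophages, where PU.1 and C/EBP factors hold them accessible, and others open during the response. DNase I cuts DNA that is not wrapped tightly in nucleosomes, so stretches with many cuts mark such enhancers and promoters. In DNase-seq these stretches are called hotspots, and each deposited list holds the hotspots of 1 library with their highest tag density, the authors' measure of how many sequenced fragment ends pile up there.

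On chromosomes 1 to 19 the 8 h lists held 46530, 50212 and 110569 hotspots (WT replicate 1, WT replicate 2 and littermate) and the 0 h lists held 16572, 20628 and 61651 in the same order. The lists were not all cut alike: the lowest Z-score in a list was 7.98, 8.35 and 3.65 at 8 h, against 8.29, 9.29 and 4.38 at 0 h, with the littermate list reaching lowest at each time. Each list was shortened to its 16572 hotspots of highest tag density, the length of the shortest of the 6 lists, that of WT replicate 1 at 0 h. This made the lists equal in length but not in lowest Z-score. Among the shortened 8 h lists the littermate still reached down to 5.28, WT replicate 1 to 8.13 and WT replicate 2 to 8.43. Among those of 0 h the littermate reached down to 4.41, WT replicate 1 to 8.29 and WT replicate 2 to 9.29. Read depth is unknown, since the lists hold no read counts. Should all libraries have been scaled to a common total (no source says so), the smallest step between tag densities gives the 8 h libraries a relative depth of 0.683 to 0.712 and the 0 h libraries 0.596 to 0.644 of the deepest library of the series. Neither a genome nor an annotation of the mm9 build was at hand, so regions are named by mm9 position as the lists give them, without gene names, and the labelled cell type was not checked against marker genes.

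At equal length, the 8 h lists were made of broader and taller hotspots than the 0 h lists. The median hotspot length was 1118, 1161 and 1516.5 bp at 8 h, against 601, 675 and 857 bp at 0 h. The groups did not overlap, and they averaged 1265 ± 219 bp at 8 h and 711 ± 132 bp at 0 h (SD, n = 3 each). In the lists as deposited the difference in median length was 123.5 bp with an exact permutation p = 0.2, against 554 bp at equal length. The deposited 8 h lists reach further down in rank than the 0 h list of the same name, so hotspots of unlike rank enter that difference. Whether the gap differs between strong and weak hotspots was not tested. The hotspots used covered 24.1 ± 4.45 Mb at 8 h and 12.7 ± 2.56 Mb at 0 h. The median highest tag density was 25.8 ± 1.13 at 8 h and 8.86 ± 0.935 at 0 h, the mean of the mean tag density 11.0 ± 1.28 and 4.18 ± 0.528, and the median Z-score 42.1 ± 2.68 and 14.4 ± 1.87 (8 h and 0 h, SD, n = 3 each). None of these 5 measures overlapped between the times, and each gave p = 0.1 in an exact two-sided permutation test (adjusted p = 0.1 over the 5 tests), the smallest p that 3 lists against 3 allow. The equal cut chose hotspots by tag density and kept a smaller part of each 8 h list than of the 0 h list of the same name. It kept 16572 of 46530, 50212 and 110569 hotspots at 8 h, and of 16572, 20628 and 61651 at 0 h. How far this selection, depth or digestion enters these differences was not tested, and the differences stand beside every result that follows. For that reason hotspots were compared by presence in equally long lists and by rank within their list, not by tag density across lists.

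Merging hotspots that share at least 1 bp over the 6 lists gave 24973 union regions. Of these, 9104 (36.5%) were in all 6 lists, the common core of accessible chromatin at both times. A further 1390 regions (5.57% of all union regions) were held by every 8 h list and by no 0 h list, called 8 h regions below. In the other direction 714 (2.86%) were held by every 0 h list and by no 8 h list, called 0 h regions below. The largest class outside the core was that of 3976 regions found in 1 list at 0 h and nowhere else, against 1577 found in 1 list at 8 h and nowhere else. These counts depend on how deep the lists are read: lists as deposited gave 10125 regions present at 8 h alone and 17 at 0 h alone. Without WT replicate 1 at 0 h, which sets the length, the counts were 2247 and 1386, and the count of 0 h regions was 1111 without WT replicate 2 at 0 h and 1085 without the littermate at 0 h.

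**Figure D1:**
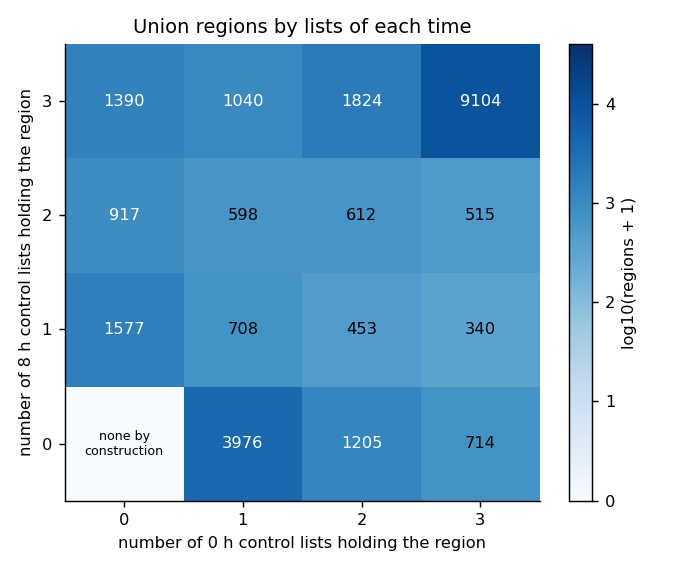
Number of union regions by how many of the 3 control lists at 8 h (vertical axis) and at 0 h (horizontal axis) hold them, with colour on a log10 scale. The top left cell holds the 1390 regions in every 8 h list and no 0 h list, the bottom right cell the 714 regions of the opposite kind, and the top right cell the 9104 regions in all 6 lists.

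Most regions of both classes lay far down their lists. The median over 8 h regions of the mean within-list rank at 8 h was 11050.5, where rank 1 is the strongest hotspot and 16572 the weakest used. The median over 0 h regions of the mean rank at 0 h was 10798.7. All 3 ranks were at 5000 or better in 27 of the 8 h regions and in 25 of the 0 h regions. The 8 h regions had a median length of 1394 bp and the 0 h regions 846.5 bp, against 1208 bp over all union regions. Within each list the hotspots of both classes were shorter than the list's median, for example 967 against 1118 bp for 8 h regions in WT replicate 1 at 8 h, and 494.5 against 601 bp for 0 h regions in WT replicate 1 at 0 h.

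Absence from an equally long list is not absence of cutting, and here the directions differ in what the full lists can show. Of the 714 0 h regions, 92.7%, 92.2% and 99.3% were present further down the full 8 h lists (WT replicate 1, WT replicate 2 and littermate), at median ranks of 24494.5, 25152 and 25166. Most 0 h regions were thus still hotspots at 8 h, below the strongest 16572. In the 639 of them that are in all 6 full lists, the median highest tag density was 10.8 at 8 h and 7.70 at 0 h, and the ratio of 8 h to 0 h was below 1 in 127, so a lower rank did not mean a lower tag density in most of them. Tag densities are the authors' values, whose scale may differ between libraries, and these are given as a description. Of the 1390 8 h regions, 12.1% were further down the full list of WT replicate 2 at 0 h and 64.0% further down that of the littermate at 0 h, at a median rank of 26744 in the littermate list. The full list of WT replicate 1 at 0 h ends at the length used, so no 8 h region can be in it. Where most 8 h regions stood at rest cannot be read from the WT lists. Below, a list at 3 h or of KO is the equally long one unless it is called full.

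The 8 h region with the strongest mean rank was chr11:116238047-116239341. It ranked 886 in WT replicate 1, 280 in WT replicate 2 and 351 in the littermate at 8 h. At 0 h it was absent from both full WT lists and stood at rank 17823 of 61651 in the littermate list. Its highest tag density there, 5.65, equalled that of the last hotspot used, a value shared by 2227 hotspots of that list. The order among ties thus placed the region outside the used length there. It was among the top hotspots in all 3 libraries at 8 h and at the margin or missing in all 3 at 0 h. At 3 h, a time that took no part in its choice, its ranks in the same 3 libraries were 3072, 702 and 612. In KO it stood at ranks 30038 and 21410 of the full lists at 0 h, beyond the used length, ranked 655 and 634 at 3 h, and ranked 1737 and 1480 at 8 h. In the control libraries it was thus within the used length by 3 h, at a weaker rank than at 8 h in each of the 3.

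The region chr11:3101981-3102792 came next, with ranks of 142, 296 and 1358 at 8 h and no hotspot in any full 0 h list of the controls. It was in 1 of the 3 control lists at 3 h, that of WT replicate 2, at rank 792. In KO it ranked 264 and 126 at 0 h. It ranked 442 and 273 there at 3 h and 899 and 679 at 8 h, so it was a strong hotspot there at every time. It lies beside 3 regions of the first 3.5 Mb of chromosome 11 that were lower in rank at 8 h, described below. It was the only one of the 10 leading 8 h regions that was not in all 3 control lists at 3 h.

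The region chr1:182357342-182359433 ranked 2218, 1440 and 785 at 8 h, was below the used length at 0 h (rank 19610 in WT replicate 2 and 24047 in the littermate), and ranked 3564, 1384 and 1165 at 3 h. The region chr12:93040428-93043427 ranked 2590, 1524 and 931 at 8 h and was in no full 0 h list of the controls. It ranked 9373, 5389 and 2781 at 3 h, weaker than at 8 h in each of the 3 libraries. In KO it was in the 3 h lists, at ranks 10069 and 11893, absent from both full lists at 0 h, and beyond the used length at 8 h, at ranks 26420 and 28647 of the full lists. The region chr16:24765828-24767524 followed the same course in the controls, with ranks of 3448, 1645 and 1241 at 8 h, none at 0 h, and 6663, 5892 and 3140 at 3 h. Both regions stood between their 0 h and 8 h positions at 3 h.

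The region chr1:135243910-135245998 was strong in control libraries and weak in KO. It ranked 3779, 2209 and 1115 at 8 h, was in no full 0 h list, and ranked 7221, 4451 and 1605 at 3 h in the controls. It was in none of the 6 equally long KO lists, and in the full ones it ranked 40928 and 54251 at 8 h, against 76322 and 60611 at 0 h. The other 4 of the 10 leading 8 h regions were chr6:121141162-121142315, chr19:40714005-40715924, chr7:19763577-19764599 and chr10:79456815-79458061, with ranks at 8 h between 1384 and 4037. All 4 were in both KO lists at 8 h. The first, chr6:121141162-121142315, was likewise tied with the last hotspot used in the littermate list at 0 h, at rank 18124. Over the 10 leading 8 h regions, 9 were held by every control list at 3 h, 7 were in both KO lists at 8 h, and 5 were in no equally long KO list at 0 h.

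The 0 h region with the strongest mean rank was chr8:19924593-19925848. Its place in the full 8 h lists was 16721, 22234 and 24554 (WT replicate 1, WT replicate 2 and littermate), and its rank at 0 h was 439, 1084 and 837. It was outside the used length in every 8 h list and among the top hotspots of every 0 h list. At 3 h its ranks of 697, 1682 and 897 were close to those at 0 h, and it was in none of the 6 equally long KO lists, with ranks of 23495 to 49890 in the full ones. Another 2 of the 10 leading 0 h regions lie within 3 kb of it, chr8:19923857-19924355 and chr8:19927340-19927930, and the 3 together make up most of a cluster of 5 0 h regions. These 3 are therefore not separate examples.

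The region chr5:64727821-64729037 took a different course. In the full 8 h lists it was absent from both WT lists and at rank 60251 of 110569 in the littermate, and at 0 h it ranked 3262, 374 and 1099. At 3 h in the controls it was in no equally long list and in 1 full list, that of the littermate, at rank 17320. In KO it ranked 2049 and 2018 at 0 h, and in the full lists 33612 and 33308 at 3 h and 32397 and 37045 at 8 h. This was the one region of the 10 leading 0 h regions that was in no equally long control list at 3 h, and it dropped beyond the used length in KO as well. The remaining leading 0 h regions were chr1:85276738-85277360, chr5:33079989-33081058, chr17:3079065-3079785, chr18:7319989-7321679, chr7:18969163-18969721 and chr10:80640570-80641171, with ranks at 0 h between 595 and 4677. All 6 were held by every control list at 3 h, and 5 of them were in no equally long KO list at 8 h. Over the 10 leading 0 h regions, 8 were in no equally long KO list at 0 h either.

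**Figure D2:**
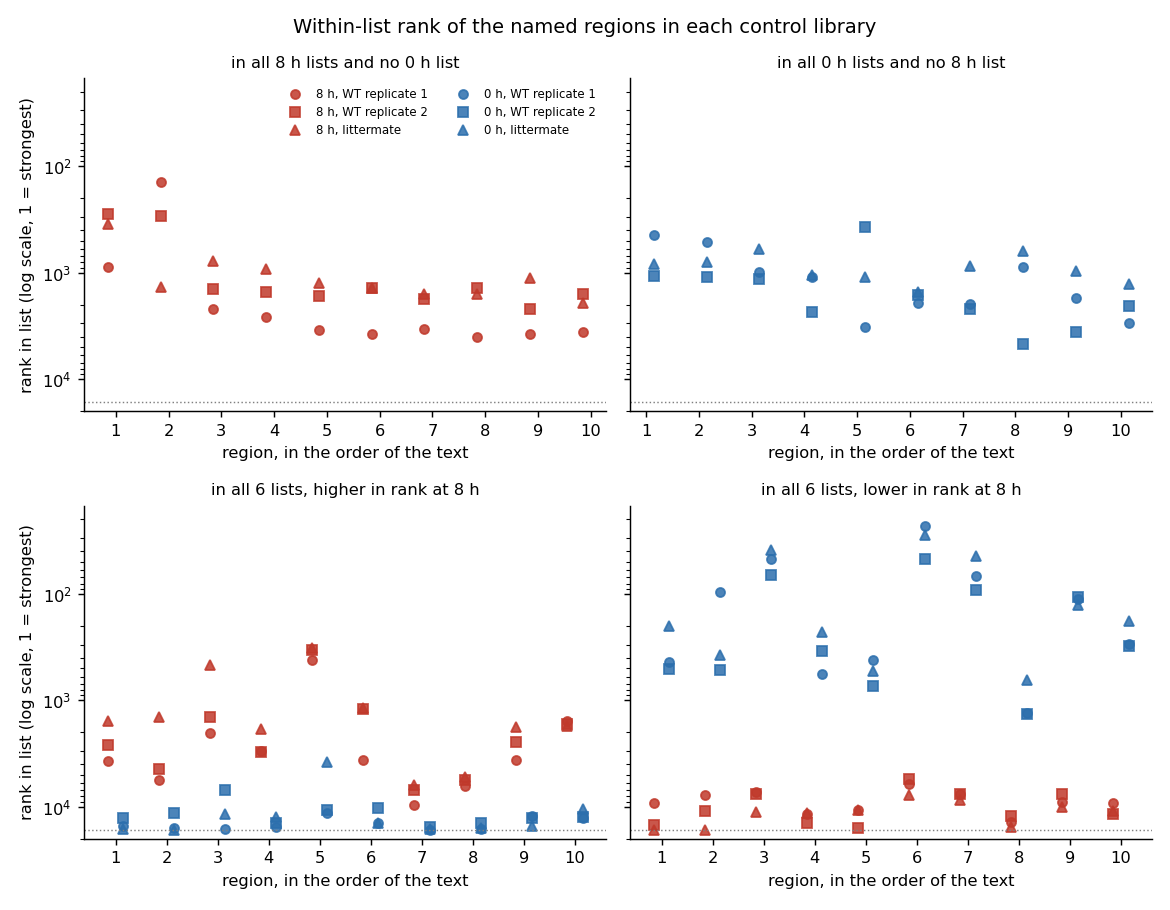
Rank within the equally long list (vertical log axis, 1 = strongest, top) of the 10 leading regions of each class (horizontal axis, in order of their mean rank or rank shift) in the 6 control libraries, 8 h in red and 0 h in blue, with a dotted line at the last hotspot used, 16572. Regions missing from a list have no point there, so the upper panels show 1 time each, and in the lower panels the colours are apart in every column.

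The control lists at 3 h, which took no part in choosing the classes, placed the 8 h regions in a graded order. Of 1390 8 h regions, 436 (31.4%, Wilson 95% interval 29.0 to 33.9%) were in all 3 equally long lists at 3 h and 352 (25.3%, 23.1 to 27.7%) in none. The intervals cover counting error only, and regions of 1 list are not independent. The 436 regions already present at 3 h were stronger and longer at 8 h than the 352 that were not, with a median mean rank of 9192 against 12172 and a median length of 1711.5 against 1172 bp. The list of WT replicate 1 at 3 h holds 15042 hotspots, fewer than the length used, and was taken whole. When a region counted as present only with at least 50% of its length covered, 3.74% were present in all 3 lists at 3 h.

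The 0 h regions followed another pattern at 3 h. Of 714, 344 (48.2%, 44.5 to 51.8%) were in none of the 3 lists at 3 h and 109 (15.3%, 12.8 to 18.1%) in all 3. The 109 regions that were still present were the stronger ones at 0 h, with a median mean rank of 6453 against 11285 for the 344. With the 3 h lists as deposited, 15.3% were in none, a drop that rests on the littermate: its full list held 82.6% of the 714, against 30.5% in that of WT replicate 1, which is no longer than the one used, and 40.9% in that of WT replicate 2. The strength of the 3 h lists was close to that of the 0 h lists: the last hotspot used had a highest tag density of 1.25, 6.35 and 5.87 at 3 h, against 0.796, 6.63 and 5.65 at 0 h and 14.7, 15.3 and 15.3 at 8 h. How far this closeness enters the shares at 3 h was not tested.

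In KO macrophages, whose libraries took no part in choosing the classes, 499 of the 1390 8 h regions (35.9%, 33.4 to 38.5%) were in both lists at 8 h and in neither at 0 h. The reverse, both lists at 0 h and neither at 8 h, held for 18 of them (1.29%). Of the 714 0 h regions, 191 (26.8%, 23.6 to 30.1%) were in both KO lists at 0 h and neither at 8 h, and 4 (0.560%) the reverse. Among the 9104 regions in all 6 control lists the same shares were 0.791% present in KO at 8 h alone and 1.94% at 0 h alone. These core regions were stronger than either class, with median mean ranks of 5069.5 at 8 h and 5326.8 at 0 h. Of them, 90.2% were in all 4 KO lists, which leaves little room for presence at 1 time alone. The same shares over all union regions, or over regions of like rank, were not computed. Both classes thus went the same way in KO more often than the opposite way. With the KO lists as deposited, which hold most of these regions at both times, the shares with the same course were 5.54% for 8 h regions and 0.420% for 0 h regions. The KO lists differ less in strength between the times, with a last highest tag density of 18.7 in both lists at 8 h and 14.6 and 14.4 at 0 h.

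A large part of each class was not among the strongest 16572 hotspots of KO at either of these times. None of the 4 equally long KO lists held 428 of the 8 h regions (30.8%, 28.4 to 33.3%) and 249 of the 0 h regions (34.9%, 31.5 to 38.4%). Most of these are further down, since the full KO lists held 98.9% and 98.8% of the 8 h regions at 8 h, against 92.4% and 91.1% at 0 h. They held 96.9% and 96.6% of the 0 h regions at 8 h, against 97.6% and 97.8% at 0 h. Another 202 of the 8 h regions (14.5%) and 135 of the 0 h regions (18.9%) were in all 4. The share of 8 h regions with the same course in KO was 27.8% (23.4 to 32.7%) for regions in no control list at 3 h, and 35.3%, 38.6% and 41.1% (36.5 to 45.7%) for those in 1, 2 and 3 lists. For 0 h regions the order was the other way, with 32.8% (28.1 to 38.0%) for regions in no control list at 3 h and 6.42% (3.15 to 12.7%) for the 109 in all 3. Of those 109, 75.2% (66.4 to 82.4%) were outside all 4 equally long KO lists, against 28.8% (24.2 to 33.8%) of the 344 that had dropped out by 3 h. Of the 249 0 h regions outside all 4, 82 came from the 109 and 99 from the 344.

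**Figure D3:**
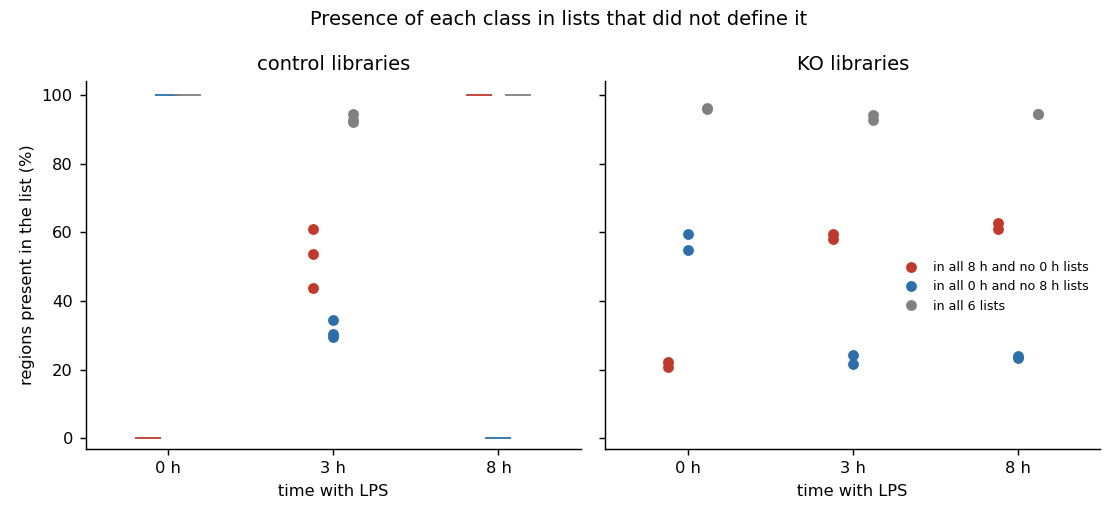
Share of each class (percent, vertical axis) present in each equally long list after 0, 3 and 8 h with LPS, in control libraries on the left and KO libraries on the right, 1 point per library. Short bars at 0 and 100% mark lists that define the class. In KO, 22.2% and 20.8% of 8 h regions (red) are present at 0 h and 60.9% and 62.8% at 8 h, while 59.4% and 54.9% of 0 h regions (blue) are present at 0 h and 24.1% and 23.4% at 8 h.

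Regions in all 6 lists can also shift in rank, and this was tested over the whole core. Each rank was turned into a normal score, on which a strong hotspot has a high value, and limma compared the times over 9104 regions with Benjamini-Hochberg adjustment. At an adjusted p under 0.05, 63 regions (0.692%) were higher in rank at 8 h and 98 (1.08%) were lower. In all, 1174 regions had an unadjusted p under 0.05. The ranks of all 63 and all 98 did not overlap between the times, and over the whole core the 8 h ranks lay all above the 0 h ranks in 850 regions (9.34%) and all below them in 879 (9.66%). The median shift of the core was 0.03, and that of the called regions 1.41 for the higher set and -1.80 for the lower set, in units of the normal score.

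With the series (WT replicate 1, WT replicate 2 or littermate) as a replicate block, limma called 501 regions higher (5.5%) and 363 lower (3.99%), among them all 63 and all 98. Without WT replicate 1 at 0 h the unblocked counts were 266 higher and 225 lower. The higher count was 35, 11 and 12 without WT replicate 1, WT replicate 2 and the littermate at 8 h, and 107 without the littermate at 0 h, while the lower count was 55 without WT replicate 2 at 0 h. With lists as deposited, where the median region shifted by 0.58, 285 regions were higher and 54 lower, so the balance between the directions depends on list length. Spearman's rho of the ranks across the 9104 regions was 0.816 to 0.890 among the 8 h libraries and 0.636 to 0.734 among the 0 h libraries, a description since regions are not independent. Between the times it was 0.714 to 0.803 within a series and 0.615 to 0.731 across series, so the 0 h libraries were no more alike than libraries of different times.

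**Figure D4:**
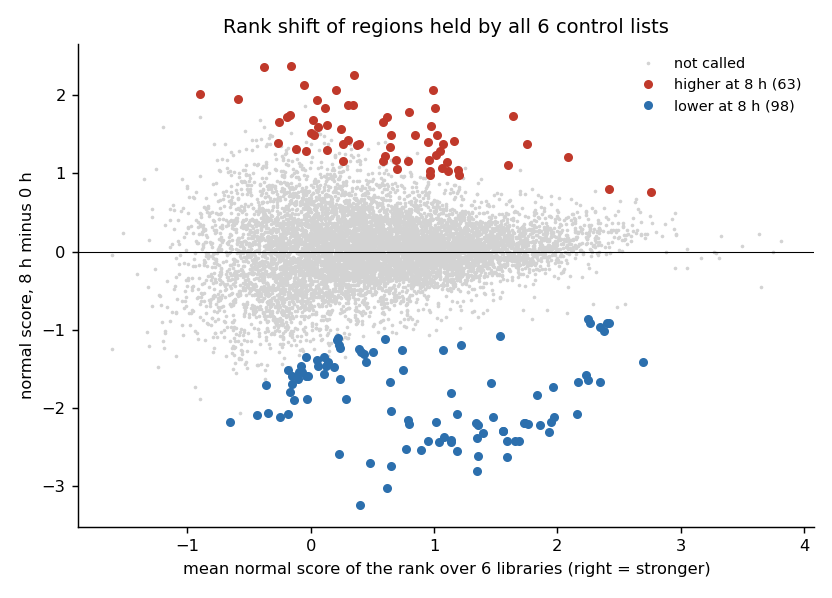
Shift in normal score between the times (vertical axis, 8 h minus 0 h) against the mean normal score over the 6 libraries (horizontal axis, stronger to the right) for the 9104 regions in all 6 control lists. The 63 regions called higher at 8 h (red) lie mostly at middling to high mean rank, and many of the 98 called lower (blue) lie far below the cloud, down to -3.24.

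The largest upward shift among the called regions was at chr13:20875616-20881962. It ranked 3697, 2642 and 1557 at 8 h (WT replicate 1, WT replicate 2 and littermate), against 15146, 12821 and 16118 at 0 h. All 3 libraries at 8 h were well above all 3 at 0 h, a shift of 2.37 ± 0.354 (SE, adjusted p = 0.002, limma). At 3 h it ranked 5276, 3328 and 2742, and in KO it ranked 2373 and 2994 at 8 h, against 20712 and 18857 of the full lists at 0 h, beyond the used length. The shift fell to 0.96 and lost its call when hotspots were ranked by Z-score.

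The region chr4:147461103-147462825 reached the highest standing of the 10 leading regions. It ranked 420, 337 and 323 at 8 h, against 11357, 10666 and 3787 at 0 h, a shift of 2.06 ± 0.299 (SE, adjusted p = 0.0016, limma). Its ranks at 3 h, 4325, 5921 and 2703, lay between those of the other times in each of the 3 libraries. In KO it ranked 395 and 323 at 8 h, against 1615 and 1819 at 0 h. Both KO ranks at 8 h were thus above both at 0 h, and those at 0 h were stronger than in the controls at 0 h.

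The region chr15:76073187-76074411 had the smallest SE of the 10 leading regions. It ranked 1570, 1668 and 1762 at 8 h, against 12779, 12518 and 10513 at 0 h, a shift of 1.87 ± 0.252 (SE, adjusted p = 0.00072, limma). Its ranks at 3 h were 1498, 1591 and 984, so by 3 h it stood at least as high as at 8 h in every library. The region chr3:65732440-65734945 behaved likewise, with 3642, 1198 and 1190 at 8 h, against 14244, 10287 and 14289 at 0 h. At 3 h it ranked 3435, 963 and 947. Its shift was 2.06 ± 0.315 (SE, adjusted p = 0.0025, limma).

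The region chr10:60167316-60169862 had its shift in the control libraries. It ranked 3610, 2482 and 1778 at 8 h, against 12137, 12669 and 15260 at 0 h, a shift of 1.94 ± 0.307 (SE, adjusted p = 0.0034, limma). In KO it ranked 13474 and 10338 at 8 h, against 12878 and 13905 at 0 h, so the KO times overlapped. The difference between the genotypes was not tested. The other 5 leading regions of the higher set were chr4:56234479-56236016, chr14:64066145-64067374, chr5:136692767-136694454, chr10:10148387-10150126 and chr3:14640959-14642845, with shifts from 1.95 to 2.36. Of these, chr10:10148387-10150126 was the weakest in rank, at 9538, 6896 and 6298 at 8 h, against 16406, 15471 and 16085 at 0 h. All 10 were in every control list at 3 h and in both KO lists at 8 h. Of the 10, 6 lost their call with the WT libraries alone, 3 with ranking by Z-score, and 4 each without WT replicate 2 or without the littermate at 8 h. A further 2 were absent from the test by Z-score, so 5 kept their call there. With ranking by mean tag density, 4 kept their call, 1 lost it and 5 were absent from the test. The calls at chr4:147461103-147462825, chr5:136692767-136694454 and chr15:76073187-76074411 held under every alternative in which the region could be tested. The last of these could not be tested with ranking by mean tag density or by Z-score. With lists cut to 0.5 times the length, all 10 leading regions were absent from the test.

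As a set, the 63 higher regions were spread over the genome. Chained within 50 kb they formed 62 groups, so nearly every one stood alone. Their median ranks in the controls at 0 h were 10012, 8437 and 8911. At 3 h they were 4055, 2316 and 1732, and at 8 h 2094, 1560 and 1190. In 52 of the 63, the 3 h ranks lay all above every 0 h rank, a position that 567 of the 9104 core regions held; the 0 h libraries are the ones that chose the set. In KO, 55 of the 63 (87.3%) had both 8 h ranks above both 0 h ranks, against 25.8% of the core. The median length of the 63 regions was 2243 bp, and that of the core 1737 bp.

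The largest downward shift was at chr17:3076234-3078285. It ranked 9299, 14730 and 16382 at 8 h, against 440, 513 and 200 at 0 h, a shift of -3.24 ± 0.414 (SE, adjusted p = 0.00045, limma). The 3 libraries at 0 h held it among their top hotspots, and those at 8 h placed it far down. At 3 h it ranked 820, 1136 and 250, near its 0 h standing. It could not be tested with ranking by mean tag density or by Z-score. With lists as deposited the shift was -1.40 (adjusted p = 0.0024, limma), where the 10 leading regions of the lower set had shifts from -1.80 to -0.98 beside a median region of 0.58. A second region in the same stretch, chr17:3080391-3081095, ranked 13824, 12312 and 15618 at 8 h, against 1320, 1354 and 638 at 0 h. It lost its call with lists as deposited. The 0 h region chr17:3079065-3079785 lies between the pair.

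By highest tag density, the region chr11:3050544-3051785 was among the strongest hotspots of the control libraries at 0 h. It ranked 6177, 5547 and 7744 at 8 h, against 23, 47 and 28 at 0 h, a shift of -2.62 ± 0.198 (SE, adjusted p = 1.2e-05, limma). Its ranks at 3 h were 33, 106 and 53. Its Z-scores at 0 h were 24.0, 19.9 and 21.1, against list medians of 13.3, 16.6 and 13.4. In KO it ranked 10906 and 12997 at 8 h, against 6011 and 6723 at 0 h, so already at 0 h its KO ranks were like those of the control libraries at 8 h. The neighbouring regions chr11:3070436-3072741 and chr11:3097442-3100055 had shifts of -2.61 and -2.55 and ranks at 0 h from 44 to 128. All 3 lie within one short stretch near the start of chromosome 11, so they are not separate examples.

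The region chr9:115058288-115060358 lay elsewhere and followed the same course. It ranked 9305, 11687 and 11052 at 8 h, against 293, 312 and 179 at 0 h, a shift of -2.54 ± 0.226 (SE, adjusted p = 1.6e-05, limma), and ranked 318, 586 and 153 at 3 h. In the full KO lists it ranked 33555 and 37896 at 8 h, against 19740 and 13898 at 0 h. The other 4 leading regions of the lower set were chr16:3231406-3242831, chr18:82390203-82391143, chr13:4560159-4561077 and chr18:85885206-85886228, with shifts from -3.01 to -2.70 and ranks at 0 h from 39 to 740. All 10 were in every control list at 3 h, and 5 of the 10 were in no equally long KO list at 8 h. With ranking by Z-score, 5 of the 10 kept their call and 5 were absent from the test. With ranking by mean tag density, 8 kept their call and 2 were absent. With lists cut to 0.5 times the length, 1 kept its call and 9 were absent.

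As a set, the 98 lower regions held many of the strongest hotspots at rest and many regions near chromosome starts. In 51 of the 98, all 3 ranks at 0 h were in the top 1000, against 457 of the 9104 core regions. The 0 h ranks also chose the set, and a large downward shift needs a high start, so this contrast only describes the set. Of the 98, 25 (25.5%) start in the first 3.5 Mb of a chromosome, the end next to the centromere in mouse, where 63 of the core regions (0.692%) and 1 of the 63 higher regions lie. Without such regions, an alternative chosen after the values were seen, the counts were 59 higher and 69 lower.

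By median rank, the lower set at 3 h still stood nearer to its 0 h position than to its 8 h position. Its median ranks in the controls at 0 h were 415.5, 515 and 328.5. At 3 h they were 723.5, 1002.5 and 314.5, and at 8 h 9015, 8868 and 8995.5, with a region missing from a list placed below its end. In 41 of the 98 the 3 h ranks lay all below every 0 h rank, a larger share than the 1012 of the 9104 core regions. Here again the 0 h libraries are those that chose the set. In KO, 77 of the 98 (78.6%) had both 8 h ranks below both 0 h ranks, on the same terms, against 41.5% of the core. The KO medians were 9978 and 11566 at 8 h, against 4771.5 and 4615 at 0 h, so the lower set stood far below its control 0 h position in KO even without LPS. In tag density the 98 were mixed: their median was 24.5 at 8 h and 28.6 at 0 h, but the ratio of 8 h to 0 h within a region had a median of 1.14 and was below 1 in 44 of the 98. In the core the median was 36.2 at 8 h and 11.6 at 0 h, with a median ratio of 3.11.

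The core regions were also broader at 8 h. Within a series, the covered length of a region at 8 h divided by that at 0 h had a median of 1.66 in WT replicate 1, 1.51 in WT replicate 2 and 1.58 in the littermate. The region was wider at 8 h in 99.0%, 98.5% and 98.5% of the 9104 regions. The broader hotspots of the 8 h lists were thus seen in nearly all regions of the core.

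Regions of 1 class lay near each other along the chromosomes. Within 5 kb of an 8 h region, 17.9% of the neighbouring union regions were themselves 8 h regions and 0.760% were 0 h regions. Around all union regions the shares at that distance were 7.27% and 4.25%. The share of 8 h regions around 8 h regions was 12.4% at 5 to 50 kb, 7.55% at 50 to 250 kb and 5.91% at 1000 to 2000 kb, where that around all regions was 5.47%. Around 0 h regions, 16.6% of neighbours within 5 kb and 6.07% at 5 to 50 kb were 0 h regions, against 4.25% and 2.90% around all regions. Each class was also rarer around the other: 1.30% of neighbours within 5 kb of a 0 h region were 8 h regions. The values are a description, since neighbouring hotspots can belong to 1 broad accessible stretch.

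**Figure D5:**
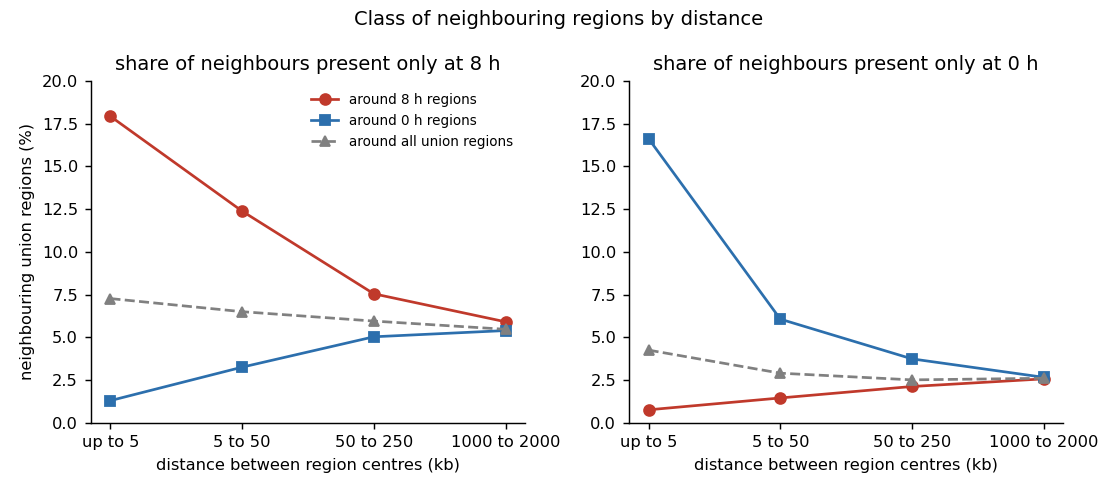
Percent of neighbouring union regions that are 8 h regions (left) or 0 h regions (right), by distance between region centres in kb, around 8 h regions (red), 0 h regions (blue) and all union regions (grey). Each class is most frequent next to itself, at 17.9% and 16.6% within 5 kb, and the curves lie close together at 1000 to 2000 kb.

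Chaining 8 h regions within 50 kb put 482 of the 1390 (34.7%) into 194 clusters, of which 22 held 4 or more. The largest held 8 regions at chr2:167466832-167641369, with 2 of them in every control list at 3 h and 6 in both KO lists at 8 h. A cluster of 6 regions within 32 kb at chr4:144842159-144874091 had none in all 3 lists at 3 h and all 6 in both KO lists at 8 h. Clusters of 6 regions also lay at chr5:65225022-65361811 and chr13:5784393-5837234, and the one on chromosome 5 had 2 of its 6 in all 3 lists at 3 h. By contrast, in a cluster of 5 regions at chr11:83335501-83364873, the strongest of these by its best mean rank of 4108, all 5 were in all 3 lists at 3 h. That cluster was named after its values were seen. Clusters of 8 h regions therefore differed in whether they were already among the strongest hotspots at 3 h.

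Of the 0 h regions 146 of 714 (20.4%) formed 64 clusters, and 3 of these held 4 or more. They were the 5 regions at chr8:19923857-19983101, the 5 at chr5:33068007-33082199 and the 4 at chr17:3009960-3079785. All 4 of the chromosome 17 cluster and 4 of the 5 of the chromosome 5 cluster were held by every control list at 3 h, and no region of either cluster was in both KO lists at 0 h. Across chromosomes, 8 h regions made up 3.99% of union regions on chromosome 9 to 6.74% on chromosome 14, and 0 h regions 1.92% on chromosome 15 to 3.78% on chromosome 7, so neither class was bound to a chromosome.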

How the data were processed

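Each DNase-seq library of the macrophages has its own deposited list of hotspots. The submitters' processing notes name mm9 as the build and CASAVA as a tool; aligner, hotspot caller and calling threshold: not given in the sources used here. The columns are, per the file headers, position, highest and mean tag density, Z-score and p-value. The deposited tag densities were taken as a signal and the deposited Z-scores as a score, while the deposited p-values were not used. Whether starts count from 0 or 1 is not stated. Libraries were called one by one by the authors. The labels' protocols describe digestion of nuclei by DNase I, size selection of fragments and single-end reads of 51 bases.

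From these lists, chromosomes 1 to 19 were taken, each list was cut to 16572 hotspots by highest tag density (ties by mean tag density, then position), and hotspots sharing 1 bp or more over the 6 lists were merged. A region was present in a list that holds at least 1 of its hotspots, and its rank was that of its strongest hotspot. Ranks became normal scores (offset 0.5), which limma 3.58.1 in R 4.3.3 compared with a trend in the prior variance, at an adjusted p of 0.05; tables were made with Python 3.11.15, pandas 2.3.3 and scipy 1.17.1. Shares have Wilson 95% intervals. List-level values were compared by exact permutation. The fit without a block is the main one, since the labels do not say that libraries of a series share an animal or culture. The series pair the samples by name: WT replicate numbers come from the titles and the littermate has 1 library per time. The deviations of same-series libraries from their time's mean correlated at 0.52, 0.24 and 0.37, each above 0.1, so the fit with a block is given beside the main one. The procedure was tested on simulated data.

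The 10 leading regions per class were named by mean rank or by shift among non-overlapping calls, with the 3 largest clusters per class and a further one of equal size. The members and lists were chosen with earlier results of these data known. Gene assignment, gene lists, cell type markers and motifs needed an mm9 genome or annotation and were not analysed here.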

Additional observations from a re-analysis of the deposited data

How the results depend on the processing

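The counts of regions were set by list length and by the definition of presence more than by the ranking. For 8 h regions and 0 h regions, given in that order, lists as deposited gave 10125 and 17, lists cut to 0.5 times the length 508 and 327, WT libraries alone 2241 and 1301, a minimum of 50% of the region covered 4272 and 451, and fixed bins of 500 bp 11669 and 1386. The littermate alone, chosen after seeing the data, gave 28186 and 24012 at 61651 hotspots per list. Leaving out 1 library gave 1703 to 2247 and 799 to 1386. For regions higher and lower in rank, lists as deposited gave 285 and 54, lists cut to 0.5 times the length 12 and 35, WT libraries alone 10 and 64, the replicate block 501 and 363, and an adjusted p of 0.01 as threshold 14 and 54. Ranking by mean tag density gave 37 higher, every chromosome 95 higher, no trend in the prior variance 34 higher, and log2 of the highest tag density 148 lower. Leaving out 1 library gave 11 to 266 higher and 55 to 225 lower. Of the 63 and 98 calls, ranking by Z-score called 26 and 47 again. Lists as deposited moved the share of 8 h regions in all 3 lists at 3 h to 37.4% and of those with the same course in KO to 5.54%, and of 0 h regions in no list at 3 h to 15.3% and with the same course in KO to 0.420%; a minimum of 50% covered moved the 3 h shares to 3.74% and 57.4%. Among the named regions 1 result turned round: for chr18:7319989-7321679, lists at 8 h minus lists at 0 h ranged from -3 to 1 when 1 library was left out, and the value of 1 came without WT replicate 1 at 0 h. Without that library, 3 of the 10 leading 0 h regions and 6 of the 10 leading 8 h regions kept their class. With lists as deposited, all 10 leading 0 h regions and 4 of the 10 leading 8 h regions lost it. Hotspot length, covered length, tag density and Z-score were higher at 8 h under every alternative run for each, but the difference in median length was 123.5 bp (exact permutation p = 0.2) with lists as deposited, against 554 bp at equal length. The shifts of the 10 leading lower regions were -1.80 to -0.98 with lists as deposited, against -3.24 to -2.54. Except where the longer or shorter lists themselves set the count, the cause was not tested. Depth is unknown, so counting error per hotspot cannot be given.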
